A study of Mus musculus with 15 samples.

Results

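The 10 genes described here encode steps of insulin and insulin-like growth factor (IGF) signalling through phosphoinositide 3-kinase (PI3K). They are the ligands Igf1 and Igf2, the receptors Insr and Igf1r, the adaptors Irs1 and Irs2, the PI3K genes Pik3r1 and Pik3ip1 and the transcription factors Foxo1 and Foxo3. The members were chosen by name, with earlier results of these data known. They make up 10 of the 56980 genes in a table of TPM. This unit of mRNA level is corrected for transcript length and scaled to a fixed total per library. All 10 were found, and all 10 passed the filter on low TPM in TA and in heart.

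Bulk RNA-seq was made from the tibialis anterior (TA), a fast muscle of the lower leg, and from the heart of DBA/2J-mdx mice, which lack dystrophin and serve as a model of Duchenne muscular dystrophy. Mice received dasatinib and quercetin (D + Q), a tyrosine kinase inhibitor and a flavonoid given together to remove senescent cells, or vehicle, 2 times per week. The TA groups were 4 D + Q–treated and 4 vehicle-treated mice, treated for 2 months from the age of 3 months and collected at 5 months. The heart groups were 3 D + Q–treated and 4 vehicle-treated mice, treated for 4 months from the age of 12 months and collected at 16 months. All 4 groups carried the dystrophic genotype, and no healthy group was analysed here. The 4 D + Q–treated TA mice were male, vehicle TA mice 1 and 3 were male and 2 and 4 female, vehicle heart mice 1 and 4 were male and 2 and 3 female, and D + Q hearts 1 and 2 were labelled female and heart 3 male. Sex read from Xist and Y-linked genes matched the label in 14 of 15 libraries. The exception was D + Q heart 3, which read as female, so the heart results nearest the threshold are also given without it.

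Insulin and the IGFs bind receptor tyrosine kinases, which phosphorylate the IRS adaptors. Phosphorylated IRS proteins recruit PI3K, whose product activates the kinase Akt. Akt promotes glucose uptake and protein synthesis and keeps FoxO factors out of the nucleus, where they would otherwise transcribe genes of protein breakdown and of the fasting response. In muscle, IGF1 is known for supporting growth and repair, and FoxO1 and FoxO3 for driving atrophy genes. The values here are mRNA levels, and neither protein nor phosphorylation was measured.

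In liver, FoxO factors are known to bind an insulin response element of the Irs2 promoter, and both IRS genes carried its core letters in their promoter windows here. RefSeq windows of 250 bases before the start site (table build GRCm38.p6, placed on GRCm39 by exact match) were searched on both strands for GTAAACA, a FoxO core present in 3.17% of 32851 mouse promoter windows, for CAAAACA, the core of the insulin response element, present in 5.56%, and for CACGTG, the E-box, present in 6.02%. For 9 members, 13 windows were matched, and Insr had no entry. Matches were found in 2 windows, those of Irs1 and Irs2, and no window held GTAAACA. The 30 bases around each match are shown 5′ to 3′ because they set the IRS promoters apart from the other windows searched, with the matched letters in capitals (CACGTG for the E-box, TGTTTTG for CAAAACA read on the opposite strand):
Irs1, chr1:82269255-82269284, minus strand, 124 to 95 bases before the start: aggctccgtCACGTGTTTTGctcctctgga
Irs1, chr1:82269174-82269203, minus strand, 43 to 14 bases before the start: cagccgccgctTGTTTTGgttggggctctc
Irs2, chr8:11058952-11058981, minus strand, 52 to 23 bases before the start: cgcagagtCACGTGtTGTTTTGctcttagt
In Irs1 the E-box and the insulin response core shared 2 bases, whereas in Irs2 they were separated by 1 base. GENCODE M39 places 178 of the 250 bases of the Irs1 window and all 250 of the Irs2 window inside the annotated gene, so the start sites of RefSeq and GENCODE differ. A match is a description of these letters and not evidence of binding.

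Whole-table facts that touch the results are few. The table held TPM for 15 libraries and no counts, so the depth behind each value is unknown. The labelled tissues matched their markers. In TA, 5 skeletal fibre genes summed to 36980 to 48343 TPM, against 1330 to 1783 in heart. In heart, 5 cardiomyocyte genes summed to 13880 to 18229 TPM, against 51.8 to 116 in TA. Among hearts, D + Q heart 2 had the skeletal genes Myh4, Tnnt3 and Mylpf at 10.2, 21.5 and 13.2 TPM. The other hearts had at most 0.330, 1.77 and 1.20 TPM of these genes. The heart groups differed in several marker sums. The sum of 5 atrial markers was 864 to 4260 TPM in vehicle hearts against 382 to 427 in D + Q hearts, with 2 of the 5 (Sln and Bmp10) under 0.5 TPM in every D + Q heart and none at 0 throughout. Red cell genes summed to 346 to 1231 TPM against 26.8 to 122, and 10 clock genes of one phase to 272 to 355 TPM against 128 to 155, without overlap. In bulk tissue, fewer cells of a type and less RNA per cell cannot be told apart.

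**Figure D1:**
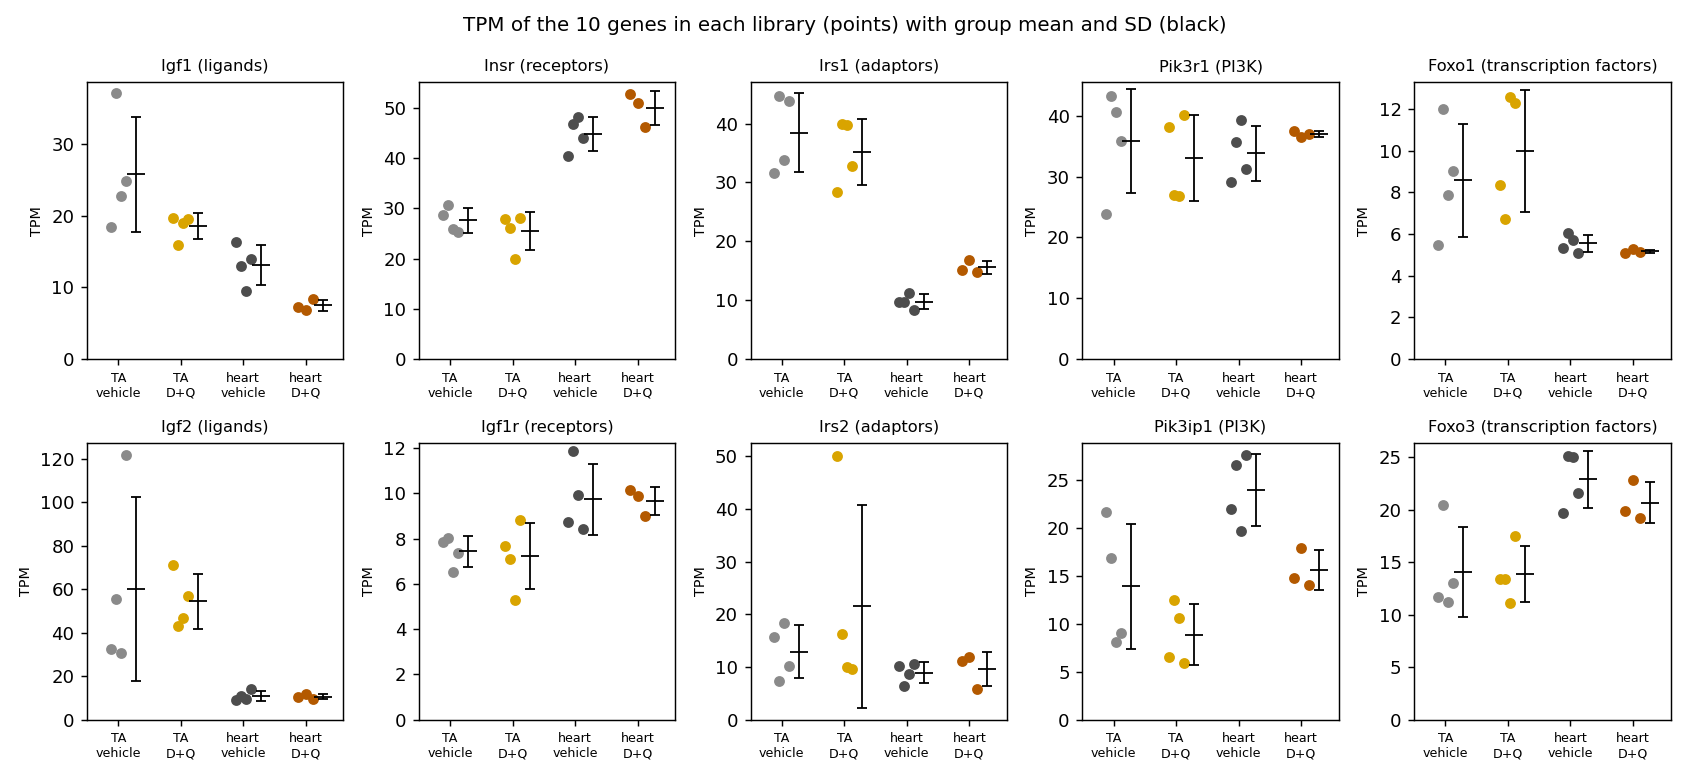
TPM of each gene (y axis, linear from 0) in every library of the 4 groups (x axis), with points for mice and black marks for the group mean and SD (n = 4, 4, 4 and 3). Irs1 and Igf2 are higher in TA than in heart and Insr is lower, without overlap, and within the heart Igf1, Irs1 and Pik3ip1 do not overlap between D + Q and vehicle.

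Between D + Q and vehicle, none of the 10 genes passed the test in either tissue, and the 3 nearest to it were all in the heart. There, Irs1 was higher with D + Q and Igf1 and Pik3ip1 were lower, in every mouse. In TA no member separated the groups. Log2 fold changes come from limma on log2(TPM + 0.5), with D + Q minus vehicle, and a gene was called where its size exceeded 0.5 and its Benjamini-Hochberg adjusted p, over all genes tested, was under 0.05. The TA model held 1 surrogate variable, a fitted covariate that stands for unlabelled variation among mice, and the heart model held labelled sex. In TA, 0% of 16298 genes were called higher and 0% lower. In the heart, 0.105% of 16132 genes were called higher and 0.211% lower. The study, with a test on counts, reported called genes in both tissues. Among them were Irs1, higher in heart, and Pik3ip1, lower in heart and TA. The lack of calls here therefore does not show that D + Q had no effect.

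Irs1 (ENSMUSG00000055980, chr1:82210822-82269338) encodes an adaptor that carries the signal of both receptors and is known for its role in body growth. In the 4 vehicle hearts it measured 9.70, 9.75, 11.3 and 8.34 TPM, and in the 3 D + Q hearts 15.1, 16.8 and 14.8 TPM. The lowest D + Q heart therefore lay above the highest vehicle heart. The log2 fold change was 0.62 (SE 0.09, limma adjusted p = 0.0597), which placed Irs1 at rank 63 by p but short of the threshold. Without vehicle heart 3, the highest of its group, the fold change was 0.68 and the adjusted p = 0.0466, a call that the full set of mice does not give. Leaving out vehicle heart 3 also raised the calls over all genes, from 17 to 64 higher and from 34 to 72 lower. Without D + Q heart 3, whose sex did not match its label, the Irs1 log2 fold change was 0.58 with a limma adjusted p of 0.260. With sex read from expression in place of the label, it was 0.55 with an adjusted p of 0.150.

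In TA, Irs1 measured 31.6, 44.6, 33.8 and 43.8 TPM in vehicle mice and 28.4, 39.9, 39.7 and 32.7 TPM with D + Q. These ranges overlapped, and the log2 fold change was -0.03 (SE 0.14, limma adjusted p = 0.999). The difference of the D + Q effect between TA and heart was tested directly in 1 model of the 4 groups. For Irs1 it was -0.77 (SE 0.21, limma adjusted p = 0.413). Its unadjusted p was 0.0020, the only one of the 10 under 0.05, where 1.85% of 17868 genes stood above 0 and 3.71% below. Calls of this difference covered 0.0448% of genes above 0 and 0.0168% below, and no member. A different effect of D + Q on Irs1 in TA and heart was therefore not shown.

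Irs2 (ENSMUSG00000038894, chr8:11034681-11059499) encodes the second broadly expressed IRS adaptor, known to be induced by fasting in liver. Its levels did not follow treatment. In TA it measured 15.6, 7.31, 18.4 and 10.2 TPM in vehicle mice and 50.1, 16.3, 10.01 and 9.66 TPM with D + Q, so that D + Q mouse 1 stood far above the other 7. In hearts the range was 6.32 to 10.6 TPM with vehicle and 5.92 to 11.9 TPM with D + Q. Its log2 fold change was 0.14 (SE 0.34) in TA and 0.06 (SE 0.27) in heart, and in TA it was -0.06 without D + Q mouse 1.

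Igf1 (ENSMUSG00000020053, chr10:87693642-87772904) encodes the growth factor that muscle makes locally and liver secretes. Vehicle hearts measured 16.3, 12.98, 9.56 and 13.96 TPM, and D + Q hearts 7.27, 6.87 and 8.34 TPM. All 3 D + Q hearts lay below the lowest vehicle heart. The log2 fold change was -0.70 (SE 0.12, limma adjusted p = 0.0878). It was -0.83 with an adjusted p of 0.0369 without vehicle heart 3, the lowest of its group. Without D + Q heart 3 it was -0.62 with an adjusted p of 0.294. With sex read from expression in place of the label, it was -0.55 with an adjusted p of 0.230.

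The same gene in TA measured 18.4, 37.1, 22.8 and 24.8 TPM with vehicle and 19.7, 16.0, 19.0 and 19.6 TPM with D + Q. Only vehicle mouse 1 lay within the D + Q range. Igf1 had a log2 fold change of -0.42 (SE 0.21, limma adjusted p = 0.999) in TA, and of -0.14 when labelled sex replaced the surrogate variable. The coefficient of variation was 31.1% in vehicle TA and 9.47% in D + Q TA, with the highest vehicle value in female mouse 2. The D + Q effect on Igf1 differed between tissues by 0.34 (SE 0.28, adjusted p = 0.953), which did not pass the test.

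Igf2 (ENSMUSG00000048583, chr7:142204503-142220694) encodes the fetal growth factor of the family, which is imprinted and is expressed again during muscle repair. It was the most variable of the 10 genes in vehicle TA, at 32.7, 55.7, 30.9 and 122 TPM, and the D + Q mice measured 71.1, 43.0, 46.8 and 56.7 TPM within that range. In heart it lay between 8.98 and 13.99 TPM with vehicle and between 9.55 and 12.0 TPM with D + Q. The log2 fold changes were 0.09 (SE 0.39) in TA and -0.02 (SE 0.17) in heart. The 95% interval in TA ran from -0.78 to 0.96.

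Pik3ip1 (ENSMUSG00000034614, chr11:3280401-3292971) encodes a transmembrane protein that binds the catalytic subunit of PI3K and restrains it. Vehicle hearts measured 22.0, 26.6, 19.7 and 27.7 TPM, and D + Q hearts 14.8, 17.9 and 14.02 TPM. The groups did not overlap, and the log2 fold change was -0.60 (SE 0.15, limma adjusted p = 0.117). It was -0.48 with an adjusted p of 0.395 without D + Q heart 3, and -0.55 with an adjusted p of 0.251 with sex read from expression. In TA the values were 21.7, 16.9, 8.09 and 9.03 TPM with vehicle and 6.52, 12.5, 10.6 and 5.93 TPM with D + Q, which overlapped (log2 fold change -0.42, SE 0.30).

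Pik3r1 (ENSMUSG00000041417, chr13:101817071-101904725) encodes the p85 alpha regulatory subunit, which stabilises the catalytic subunit and docks it to IRS proteins. It spanned 23.8 to 43.2 TPM in vehicle TA and 26.9 to 40.2 TPM in D + Q TA. In hearts the 3 D + Q mice were close together, at 36.6 to 37.6 TPM, inside the vehicle range of 29.1 to 39.3 TPM. Its log2 fold change was -0.20 (SE 0.20) in TA and 0.11 (SE 0.08) in heart.

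Expressed as a ratio within a library, Pik3ip1 to Pik3r1 had a mean log2 ratio of -0.50 ± 0.35 (SD, n = 4) in vehicle hearts and -1.26 ± 0.20 (SD, n = 3) in D + Q hearts, with no overlap. Such ratios do not depend on how libraries are scaled to one another and were not tested. Across all 15 libraries, with each group's mean removed, Pik3r1 and Pik3ip1 had the lowest Pearson r of the pairs among the 10 genes, -0.68. This is a description over mice that share a normalisation to a fixed total.

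**Figure D2:**
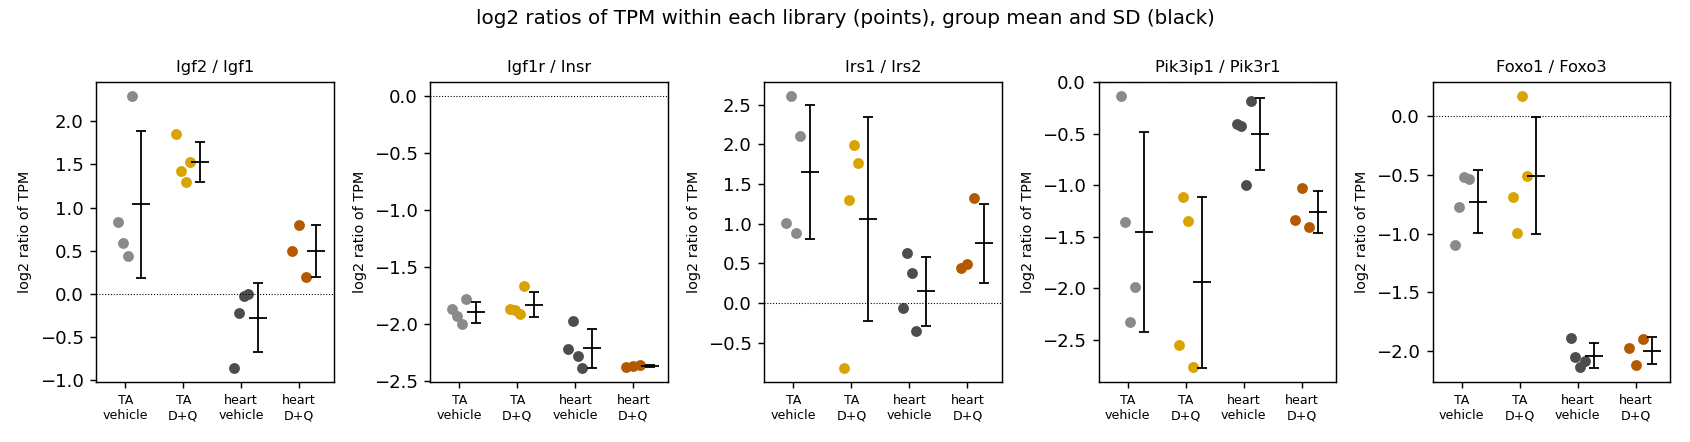
Log2 ratio of the TPM of 2 related genes (y axis) within each library, by group (x axis), with points for mice and black marks for the mean and SD. Foxo1 to Foxo3 separates TA from heart, and Pik3ip1 to Pik3r1 and Igf2 to Igf1 separate D + Q from vehicle hearts.

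The receptors differed little with treatment. Insr (ENSMUSG00000005534, chr8:3172061-3329647), the insulin receptor, measured 40.5, 46.7, 48.1 and 43.9 TPM in vehicle hearts and 52.8, 50.9 and 46.1 TPM in D + Q hearts. Those groups overlapped through D + Q heart 3, and the log2 fold change was 0.13 (SE 0.06, limma adjusted p = 0.292). Igf1r (ENSMUSG00000005533, chr7:67601518-67883416), the IGF1 receptor, spanned 8.43 to 11.9 TPM and 8.99 to 10.2 TPM in the same groups, a log2 fold change of -0.04 (SE 0.09). In TA the log2 fold changes were -0.17 (SE 0.14) for Insr and -0.10 (SE 0.18) for Igf1r. In every library Insr exceeded Igf1r per length, with a ratio of Igf1r to Insr between 0.192 and 0.315. Within groups the pair had the highest Pearson r of all pairs of members, 0.85 over 15 libraries.

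The FoxO factors overlapped between D + Q and vehicle in both tissues. Foxo1 (ENSMUSG00000044167, chr3:52175757-52260642) spanned 5.47 to 12.0 TPM in vehicle TA and 6.74 to 12.6 TPM in D + Q TA, a log2 fold change of 0.26 (SE 0.27). In hearts it was 5.11 to 6.07 TPM and 5.09 to 5.27 TPM (log2 fold change -0.11, SE 0.09). Foxo3 (ENSMUSG00000048756, chr10:42057837-42154007) spanned 11.2 to 20.4 TPM in vehicle TA and 11.2 to 17.5 TPM in D + Q TA, with a log2 fold change of -0.01 (SE 0.22). Vehicle hearts measured 19.7, 25.2, 25.0 and 21.6 TPM and D + Q hearts 19.9, 22.9 and 19.2 TPM, which gave -0.18 (SE 0.08, limma adjusted p = 0.283).

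Counted over the 10 genes, in heart 1 was higher (Irs1) and 2 were lower (Igf1 and Pik3ip1) at an unadjusted p under 0.05, against 9.65% of all genes tested higher and 7.99% lower. The same 3 were those whose groups did not overlap, against 9.63% of all genes with every D + Q mouse above every vehicle mouse and 5.57% below. In TA none reached an unadjusted p under 0.05, where 0.638% of genes did so higher and 2.36% lower, and none separated the groups, against 0.264% above and 1.25% below. The median log2 fold change of the 10 genes was -0.07 in TA and -0.03 in heart, beside -0.07 and -0.0025 over all genes. The members were chosen with earlier results of these data known, and the study itself had called Irs1 and Pik3ip1. These counts are therefore a description and no test of the set.

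**Figure D3:**
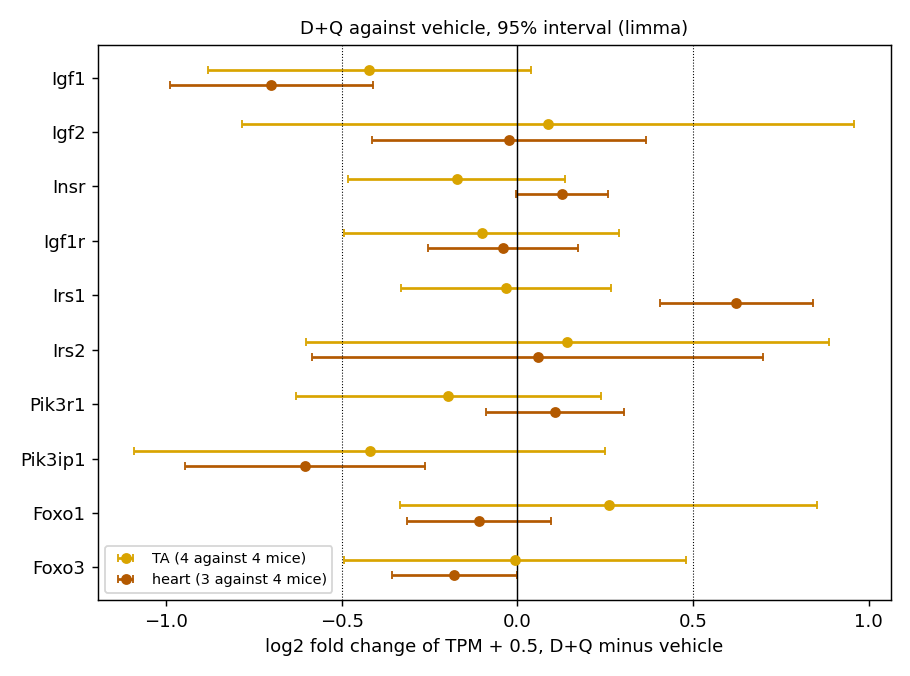
Log2 fold change of TPM + 0.5 for D + Q minus vehicle (x axis) with the 95% limma interval for each gene (y axis) in TA and heart, with dotted lines at the fold threshold of 0.5. Heart intervals exclude 0 for Igf1, Irs1 and Pik3ip1 before adjustment, and all TA intervals include 0.

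Irs1, Igf1 and Pik3ip1 split the D + Q from the vehicle hearts without overlap, and so did the atrial, red cell and clock sums given above. With D + Q, Irs1 was higher, and Igf1, Pik3ip1 and these sums were lower. Other marker sums rose with D + Q, again without overlap. The sum of 5 clock genes of the opposite phase was 38.3 to 46.4 TPM with D + Q and 19.0 to 26.6 TPM with vehicle. That of 5 cardiomyocyte markers was 17103 to 18229 TPM with D + Q and 13880 to 15254 TPM with vehicle. Fibroblast markers, 5 genes of a cell type that expresses Igf1, summed to 537 to 752 TPM in vehicle and 429 to 502 TPM in D + Q hearts, also without overlap. Taken singly, 3 of the 5 (Dcn, Col1a1 and Col3a1) were lower in every D + Q heart, beside 5.57% of all genes. Pdgfra and Lum overlapped, and none of the 5 was called. The sums of macrophage markers overlapped at 80.6 to 109 and 75.4 to 103 TPM. With the mean log2 level of the atrial markers in place of sex, the log2 fold change was 0.91 for Irs1, -2.01 for Igf1 and -0.47 for Pik3ip1, with adjusted p of 0.835, 0.835 and 0.872. The atrial score and treatment had a Pearson r of -0.958 over the 7 hearts, so this fit could hardly separate them, and its values are given as a description. The part of atrial tissue, blood, fibroblasts, cardiomyocytes and clock phase in these 3 differences was not tested.

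Beyond the 10 genes, 45 other genes of the pathway and 14 FoxO target genes were examined as fixed lists. Every gene of both lists was tested in both tissues, and 0 were called in TA and 0 in heart by limma. In TA, 0 of the 45 pathway genes and 1 of the 14 targets had an unadjusted p under 0.05, beside 0.638% of all genes higher and 2.36% lower. That target was Pdk4, the kinase that shuts off pyruvate dehydrogenase during fasting, which averaged 505 ± 143 TPM (SD) in the 4 D + Q–treated mice and 340 ± 70.8 TPM in the 4 vehicle mice (log2 fold change 0.45, SE 0.18). Its groups overlapped. The targets next in p were the ubiquitin ligase gene Fbxo32 (log2 fold change -0.37, SE 0.19) and Sesn1, a stress-induced inhibitor of mTOR signalling (-0.40, SE 0.25). Among pathway genes with small p-values were the catalytic subunit gene Pik3ca (-0.26, SE 0.14) and Ddit4, an inhibitor of mTOR complex 1 (0.73, SE 0.40).

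In heart, 8 of the 45 pathway genes were higher and 3 were lower at an unadjusted p under 0.05, beside 9.65% and 7.99% of all genes tested. Igf2r, the receptor that clears IGF2, averaged 43.0 TPM with D + Q and 35.1 TPM with vehicle (log2 fold change 0.26, SE 0.05, limma adjusted p = 0.0969). Slc2a4, the insulin-responsive glucose transporter GLUT4, averaged 178 and 148 TPM (0.26, SE 0.06, adjusted p = 0.109). Pik3cd, the PI3K catalytic subunit best known from leukocytes, averaged 1.42 and 2.60 TPM (-0.70, SE 0.16, adjusted p = 0.112). In each of these 3 genes, named for their small p-values, the 3 D + Q hearts lay on one side of the 4 vehicle hearts. Without D + Q heart 3 the log2 fold changes were 0.25, 0.32 and -0.74, with limma adjusted p of 0.305, 0.253 and 0.316. Over the 45 pathway genes, 9 were higher in every D + Q heart and 3 lower, beside 9.63% and 5.57% of all genes. Of the 14 FoxO targets, 3 were higher and 0 lower at an unadjusted p under 0.05, namely Trim63, a muscle ubiquitin ligase (0.27, SE 0.06), the mitophagy receptor gene Bnip3 (0.35, SE 0.08) and Map1lc3b, an autophagosome protein (0.19, SE 0.08). Without D + Q heart 3 these were 0.36, 0.29 and 0.18. Medians in heart were 0.01 for the pathway list and 0.09 for the targets, beside -0.0025 over all genes, and the sum of 5 cardiomyocyte markers was also higher in every D + Q heart, at 17103 to 18229 against 13880 to 15254 TPM, whose part in these values was not tested.

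**Figure D4:**
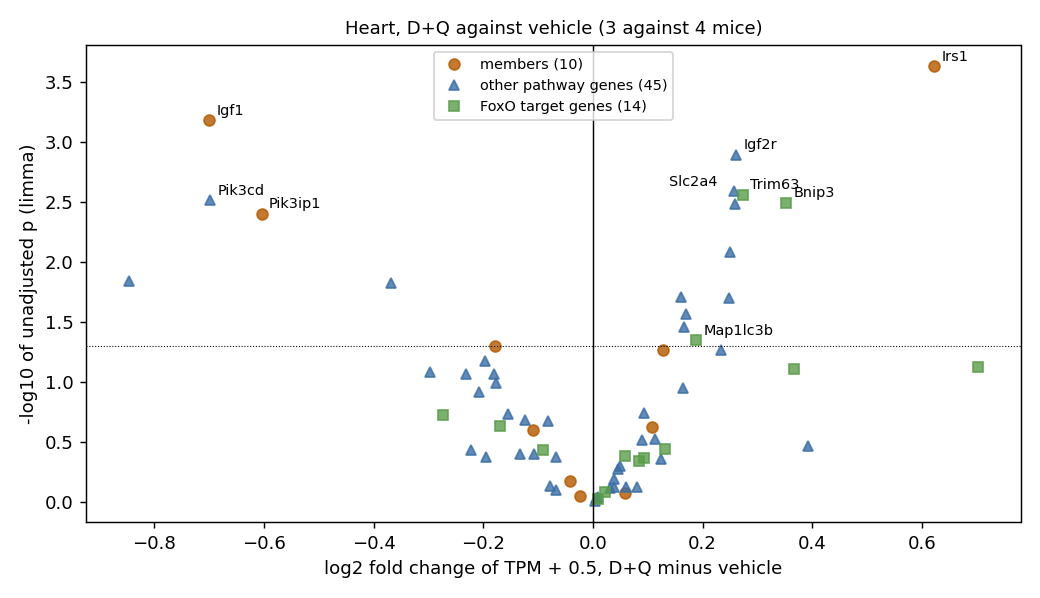
Log2 fold change in heart, D + Q minus vehicle (x axis), against -log10 of the unadjusted limma p (y axis) for the 10 members, 45 other pathway genes and 14 FoxO targets, with a dotted line at p of 0.05. Irs1 lies highest, followed by Igf1, and none of these genes passed adjustment over all genes.

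Between tissues the differences were larger. In vehicle mice 6 of the 10 genes were called, 3 higher in TA (Igf1, Igf2 and Irs1) and 3 lower (Insr, Pik3ip1 and Foxo3), beside 22.6% of 17868 genes called higher and 14.1% lower. In D + Q mice 4 were higher (the same 3 and Foxo1) and 3 lower (the same 3), beside 21.4% and 15.9%. Tissue, age (5 against 16 months) and length of treatment (2 against 4 months) changed together and cannot be told apart in these comparisons. In D + Q mice sex changed with them, since all 4 TA mice were male and all 3 hearts read as female, and a fit with labelled sex there leans on D + Q heart 3, labelled male.

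Irs1 had the smallest p-value of the members in vehicle mice. It averaged 38.5 ± 6.70 TPM (SD, n = 4) in vehicle TA and 9.77 ± 1.20 TPM (SD, n = 4) in vehicle heart, a log2 fold change of 1.91 (SE 0.14, limma adjusted p = 2.47e-08). In D + Q mice the averages were 35.2 ± 5.62 and 15.6 TPM, and the difference was 1.14 (SE 0.15, adjusted p = 1.98e-05). The order of the groups was vehicle TA, D + Q TA, D + Q heart and vehicle heart, in which the 2 TA groups overlapped and the other neighbours did not.

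The ligands were higher in TA as well. Igf2 averaged 60.2 ± 42.4 and 10.9 ± 2.28 TPM in vehicle TA and heart (log2 fold change 2.21, SE 0.33, limma adjusted p = 5.41e-05) and 54.4 and 10.6 TPM in D + Q mice (2.29, SE 0.35). Igf1 averaged 25.8 ± 8.02 and 13.2 ± 2.79 TPM with vehicle (0.92, SE 0.19, adjusted p = 0.000956) and 18.6 and 7.49 TPM with D + Q (1.25, SE 0.20). Igf2 exceeded Igf1 in all 8 TA libraries, by 1.36 to 4.90 times. In vehicle hearts the ratio was 0.551 to 1.00, and in D + Q hearts 1.15 to 1.74. Markers of regenerating muscle, 5 genes including Myog and Myh3, summed to 88.3 to 147 TPM in TA and to at most 0.403 TPM in heart, and their part in the Igf2 level was not tested.

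Insr was lower in TA, at 27.6 ± 2.50 TPM (SD, n = 4) against 44.8 ± 3.37 TPM in vehicle heart (log2 fold change -0.69, SE 0.11, limma adjusted p = 0.000127), and the difference in D + Q mice was -0.97 (SE 0.12). Igf1r leaned the same way and missed the call, at -0.36 (SE 0.15, adjusted p = 0.0589) with vehicle and -0.42 (SE 0.16, adjusted p = 0.0447) with D + Q, the latter under the fold threshold. Rescaling the libraries by median-of-ratios factors moved the median of all genes in the vehicle comparison from 0.16 to -0.0003, and Igf1r then passed in both comparisons, at -0.54 and -0.52.

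Pik3ip1 averaged 13.9 ± 6.52 TPM in vehicle TA and 24.0 ± 3.76 TPM in vehicle heart (log2 fold change -0.86, SE 0.29, limma adjusted p = 0.0228), although vehicle TA mouse 1, at 21.7 TPM, lay inside the heart range. Its difference in D + Q mice was -0.84 (SE 0.31, adjusted p = 0.0400). Each call was lost when 1 of several mice was left out, although the log2 fold changes stayed between -0.65 and -0.81 with vehicle and between -0.68 and -0.91 with D + Q where the call was lost. Leaving out vehicle TA mouse 3 or 4 or vehicle heart 2 or 4 raised the adjusted p to between 0.0550 and 0.0788, and leaving out D + Q TA mouse 1 or 4 or any 1 D + Q heart raised it to between 0.0652 and 0.126. With labelled sex as covariate the D + Q difference was -0.85 (adjusted p = 0.0807). Pik3r1 and Irs2 were not called in either comparison, with intervals from -0.32 to 0.44 and from -0.48 to 1.37 in vehicle mice. In all 4 groups Pik3r1 overlapped its neighbours in rank.

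The FoxO factors went in opposite directions. Foxo3 was lower in TA, at 14.1 ± 4.30 against 22.9 ± 2.68 TPM with vehicle (log2 fold change -0.71, SE 0.17, limma adjusted p = 0.0036), and the difference with D + Q was -0.57 (SE 0.19, adjusted p = 0.0233). The latter was -0.35 (adjusted p = 0.147) with labelled sex as covariate, -0.48 (adjusted p = 0.0608) without D + Q TA mouse 3 and -0.50 (adjusted p = 0.0902) without D + Q heart 2. Foxo1 averaged 8.59 ± 2.71 and 5.56 ± 0.42 TPM with vehicle (0.54, SE 0.21, adjusted p = 0.0515) and was called higher with D + Q at 0.84 (SE 0.23, adjusted p = 0.0077). Without vehicle TA mouse 1, the lowest of its group, Foxo1 was called higher with vehicle as well, at 0.72 (adjusted p = 0.0092). The log2 ratio of Foxo1 to Foxo3 was -0.73 ± 0.27 in vehicle TA and -0.50 ± 0.50 in D + Q TA, against -2.04 ± 0.11 and -1.99 ± 0.11 in heart. No TA library had a ratio as low as any heart library.

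**Figure D5:**
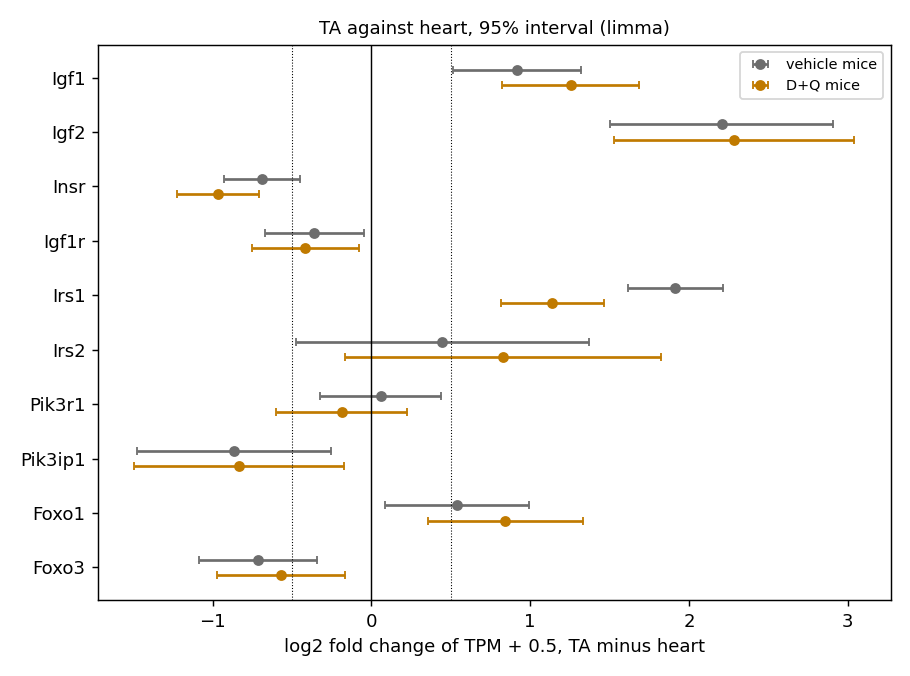
Log2 fold change of TPM + 0.5 for TA minus heart (x axis) with the 95% limma interval for each gene (y axis), in vehicle and D + Q mice, with dotted lines at the fold threshold of 0.5. Igf1, Igf2 and Irs1 lie to the right and Insr, Pik3ip1 and Foxo3 to the left in both.

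Of the 45 other pathway genes, 18 were called higher in vehicle TA and 3 lower, beside 22.6% and 14.1% of all genes, with a median log2 fold change of 0.46 beside 0.16 over all genes. In D + Q mice 17 were higher and 5 lower, beside 21.4% and 15.9%. The list was not tested against other genes. Tbc1d1 and Tbc1d4, related Akt substrates that hold GLUT4 vesicles back, were opposed. Tbc1d1 averaged 107 TPM in vehicle TA and 9.24 TPM in vehicle heart (3.53, SE 0.20), and Tbc1d4 averaged 6.46 and 25.3 TPM (-2.08, SE 0.32). The mTOR inhibitor gene Deptor (2.42, SE 0.15), the kinase gene Sgk1 (2.34, SE 0.18) and the further FoxO genes Foxo6 (1.54, SE 0.24) and Foxo4 (1.36, SE 0.15) were higher in TA. Grb14, an adaptor that inhibits the insulin receptor (-1.18, SE 0.11), and the docking protein gene Gab1 (-0.75, SE 0.11) were lower.

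Of the 14 FoxO targets, 4 were called higher in vehicle TA and 2 lower, beside the same 22.6% and 14.1% of all genes. The higher genes were Gadd45a (1.83, SE 0.52), Fbxo32 (1.20, SE 0.18), Pdk4 (0.95, SE 0.30) and Trim63 (0.53, SE 0.10), the last of which fell under the fold threshold at 0.34 with median-of-ratios scaling and at 0.44 without vehicle TA mouse 1. Pdk4 lost its call without vehicle TA mouse 1 (adjusted p = 0.0560) or vehicle heart 4 (adjusted p = 0.0672). The lower genes were Sesn1 (-1.22, SE 0.23) and Gabarapl1, an autophagosome protein (-1.02, SE 0.14). In D + Q mice 2 targets were called higher and 3 lower, beside 21.4% and 15.9%.

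For each member, the genes with the most similar pattern were sought among 12709 genes over the 15 libraries after each group's mean had been removed. Irs2 was closest to Fosl2, an AP-1 subunit (Pearson r 0.94), and Sik1, a kinase induced by cAMP (0.93). For Irs2, D + Q TA mouse 1 stood at 50.1 TPM, against 9.66 to 16.3 TPM in the rest of its group. How far that library alone sets these 2 values was not tested. Igf2 was closest to the collagen-modifying enzyme gene P3h2 (0.86) and to the collagen gene Col1a1 (0.84). Pik3ip1 had among its nearest the PI3K regulatory subunit gene Pik3r2 (0.91). Nearest to Igf1 was Nln (0.87), to Irs1 Rbm12b2 (0.92), to Insr Zfp275 (0.95), to Igf1r Ccdc9 (0.95), to Pik3r1 Gnpnat1 (0.93), to Foxo1 Fbf1 (0.91) and to Foxo3 Rif1 (0.94). With 15 libraries and so many genes searched, high values arise readily, and they are given without a test.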

How the data were processed

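The authors trimmed paired-end reads with Trim Galore 0.6.10, quantified them with Salmon 1.10.3 against GRCm39, summarised them per gene and deposited TPM for 56980 genes in 15 libraries, of which 56236 identifiers were found in GENCODE M39. The annotation release was not given in the sources used here. TPM keeps no depth, so all precision stems from the spread between samples. The labels number the samples within groups without stating how animals were drawn. Each p-value sets a difference against that spread, as limma estimates it with information shared across genes. Between tissues the spread was estimated from all 4 groups.

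The count test of the study could not be run on TPM. Instead, log2(TPM + 0.5) was fitted in limma 3.58.1 (R 4.3.3) with a trend, for genes that reached 0.5 TPM in 3 or more samples. The surrogate variable was estimated in 5 re-weighting rounds. The code was tested on simulated data. Tissue comparisons and the difference of effects used 1 model of the 4 groups without covariates.

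The members and lists were chosen with earlier results of these data known. Named from the lists are called genes or, with fewer than 3, the 3 with the smallest p, and between vehicle tissues up to 5 called genes in each direction. The result of 1 gene that this rule names is not reported here. Alternatives were other pseudocounts (0.1 and 1), filters, scaling, covariates, no trend, no minimum fold, males alone, a replicate block and leaving out each library.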

Additional observations from a re-analysis of the deposited data

Results flagged for a closer look

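Irs2 in D + Q–treated TA mouse 1, at 50.1 TPM, lay far from the other 3 mice of its group, with a gap that took up 0.837 of the group's whole range, above the 95% critical share for 4 samples. Chance gives such a gap in about 1 in 20 groups, and 30 groups of member values were examined. The same mouse had the highest surrogate variable of the 8 TA libraries, at 0.70.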

How the results depend on the processing

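With the test on all mice, 0 members were called between D + Q and vehicle in TA and in heart under each alternative to pseudocount, filter, scaling, trend, minimum fold change and covariate. Leaving out 1 library gave 0 to 1 member called higher and 0 to 1 called lower in heart (Irs1 and Igf1, both without vehicle heart 3) and 0 in TA. Between D + Q tissues, 1 member in place of 3 was called lower with labelled sex as covariate, and 1 to 3 when 1 library was left out. The heart calls over all genes, 17 higher and 34 lower, ranged from 0 to 21 and from 0 to 34 under the alternatives on all mice. They were 0 and 0 both without a filter on low TPM and with the atrial score. When 1 library was left out, they ranged from 0 to 64 and from 0 to 72, and both maxima came without vehicle heart 3. Between D + Q tissues, Pik3ip1 lost its call without a filter on low TPM (adjusted p = 0.0825) and with labelled sex, and Foxo3 with labelled sex. Between vehicle tissues, Foxo1 gained a call with a filter of 1 TPM (adjusted p = 0.0484) and with labelled sex (adjusted p = 0.0409).

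Log2 fold changes that changed sign were all of genes not called. In TA, Irs1 was 0.064 with median-of-ratios scaling and 0.091 with labelled sex or males alone, Irs2 was -0.0095 and Pik3r1 0.060 with labelled sex or males alone, and Foxo3 was 0.090 with median-of-ratios scaling, 0.0017 with no covariate and 0.25 with labelled sex or males alone. In heart, sex read from expression gave 0.042 for Igf2 and -0.015 for Pik3r1, no covariate gave 0.0014 for Igf1r, and the atrial score gave 0.45 for Igf2, 0.54 for Igf1r, -0.24 for Irs2, 0.12 for Foxo1 and 0.59 for Foxo3. Pik3r1 between vehicle tissues was -0.13 with median-of-ratios scaling, and the difference of effects for Igf1r was 0.014 with that scaling and 0.073 with labelled sex. The cause was not tested.

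Leaving out 1 library moved the TA values of Igf2 from -0.27 to 0.80, Igf1r from -0.23 to 0.085, Irs1 from -0.12 to 0.023, Irs2 from -0.056 to 0.43 and Foxo3 from -0.16 to 0.17. In heart it moved Igf2 from -0.12 to 0.11, Igf1r from -0.11 to 0.039, Irs2 from -0.19 to 0.60 and Pik3r1 from -0.015 to 0.17. Between vehicle tissues Pik3r1 ran from -0.042 to 0.24, and the difference of effects ran from -0.16 to 0.49 for Igf2, -0.15 to 0.073 for Igf1r, -0.13 to 0.64 for Irs2 and -0.18 to 0.27 for Pik3ip1.

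Replicate numbers are shared between groups, and the labels state no pairing. Deviations of same-numbered libraries from their group means correlated between -0.30 and 0.04 in TA and between -0.04 and 0.03 in heart. With so few libraries this cannot show whether the samples were paired. With the replicate block, 0 members were called in TA and heart, the heart log2 fold change was 0.58 for Irs1 and 0.10 for Igf2, that of Foxo3 in TA was 0.0017, the difference of effects for Igf2 was -0.11, the adjusted p of Pik3ip1 between D + Q tissues was 0.0599, and heart calls over all genes were 0 higher and 4 lower.

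Only TPM was available, so counting error is unknown, and each group held 3 to 4 mice. The heart differences of Irs1 and Igf1 passed the threshold only when vehicle heart 3 was left out. Leaving out any other heart library gave limma adjusted p of 0.105 to 0.260 for Irs1 and 0.160 to 0.294 for Igf1.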
